A study of Mus musculus with 22 samples.

Results

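RNA-Seq counts were examined for 8 genes that mark the projection neurons of the striatum, Drd1, Drd2, Adora2a, Ppp1r1b, Gpr6, Rgs9, Penk and Tac1, in 2 regions outside the striatum, hippocampus (HIP) and entorhinal cortex (EC). The genes were taken by symbol from the table of 55385 gene identifiers, and all 8 had reads in every one of the 22 libraries and passed the filter on low counts in every comparison. The libraries came from 11 adult male mice, each of which gave 1 HIP and 1 EC library. Of these mice, 5 were wild type (wt) and 6 were Ts66Yah, a mouse model of Down syndrome in which a segment of chromosome 16 homologous to human chromosome 21 is carried as an additional copy on a freely segregating minichromosome; both were littermates on a mixed B6C3B background, and the line goes back to 1 founder. No gene among the 8 lies on the triplicated segment, so that none has an additional copy in Ts66Yah. The study addressed the genes deregulated by the trisomy in each region, and no striatal library was analysed here.

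Projection neurons make up most of the neurons of the striatum and fall into a direct pathway, marked by the dopamine D1 receptor (Drd1) and the substance P precursor (Tac1), and an indirect pathway, marked by the dopamine D2 receptor (Drd2), an adenosine receptor (Adora2a), an orphan receptor that raises cyclic AMP (Gpr6) and the enkephalin precursor (Penk). Both classes hold DARPP-32 (Ppp1r1b), which inhibits protein phosphatase 1 when protein kinase A has phosphorylated it, and the striatal form of Rgs9, which speeds the shut-off of G proteins at dopamine receptors. Several of these genes are also known from cortical and hippocampal neurons: Drd1 in deep cortical layers, Ppp1r1b in deep cortical layers, and Penk and Tac1 in interneurons and in some excitatory neurons. Reads of such a gene in a bulk library of HIP or EC can therefore come from cells of that region or from neighbouring tissue taken with it, and fewer cells of a type cannot be told apart from less RNA per cell.

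The genes lie on 6 chromosomes of the GRCm38 build (GENCODE M21), and each is a protein-coding gene. The receptor genes are Drd1 (chr13:54051183-54055705, minus strand), Drd2 (chr9:49340627-49408177, plus strand), Adora2a (chr10:75316877-75334784, plus strand) and Gpr6 (chr10:41069977-41072285, minus strand). The genes of intracellular signalling are Ppp1r1b (chr11:98348404-98357796, plus strand) and Rgs9 (chr11:109225355-109298129, minus strand), and the neuropeptide genes are Penk (chr4:4133531-4138819, minus strand) and Tac1 (chr6:7554879-7565834, plus strand). A noncoding gene lies on the opposite strand within the span of Ppp1r1b (1700003D09Rik) and of Penk (A830012C17Rik), and since the sources used here do not state whether the counting used strand, reads of these pairs may not have been separated.

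The promoters of Drd2 and Rgs9, whose EC reads were raised in the same 2 libraries as described below, are shown with those of Gpr6 and Tac1, whose EC reads were not raised above the other libraries in both, as the 250 bases before the RefSeq start (GRCm38.p6). Capitals mark a cyclic AMP response element (TGACGTCA, the same on both strands) or an E-box (CACGTG, the same on both strands), the only motifs searched. The windows are Drd2 at chr9:49340153-49340402 (plus strand), Rgs9 at chr11:109298182-109298431 (minus strand), Gpr6 at chr10:41072291-41072540 (minus strand) and Tac1 at chr6:7554811-7555060 (plus strand), each written from 5′ to 3′ on the strand of its gene.
Drd2: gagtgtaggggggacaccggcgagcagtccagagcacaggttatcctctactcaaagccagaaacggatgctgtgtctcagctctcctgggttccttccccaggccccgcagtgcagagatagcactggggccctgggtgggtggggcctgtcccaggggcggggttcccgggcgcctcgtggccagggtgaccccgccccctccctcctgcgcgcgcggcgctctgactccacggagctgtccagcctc
Rgs9: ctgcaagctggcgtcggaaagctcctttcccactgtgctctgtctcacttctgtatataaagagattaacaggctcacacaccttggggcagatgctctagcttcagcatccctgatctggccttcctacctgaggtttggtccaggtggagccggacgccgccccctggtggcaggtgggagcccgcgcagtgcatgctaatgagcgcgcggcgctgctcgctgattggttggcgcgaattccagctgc
Gpr6: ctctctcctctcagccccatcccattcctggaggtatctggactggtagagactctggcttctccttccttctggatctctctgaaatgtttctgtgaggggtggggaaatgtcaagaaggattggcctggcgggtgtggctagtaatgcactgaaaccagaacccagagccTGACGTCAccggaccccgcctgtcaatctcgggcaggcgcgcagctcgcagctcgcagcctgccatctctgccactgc
Tac1: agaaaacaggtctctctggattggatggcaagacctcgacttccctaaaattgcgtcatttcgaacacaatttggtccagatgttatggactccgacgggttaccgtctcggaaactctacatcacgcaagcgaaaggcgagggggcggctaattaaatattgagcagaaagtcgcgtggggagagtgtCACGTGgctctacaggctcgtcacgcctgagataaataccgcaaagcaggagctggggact
The Gpr6 window held 1 cyclic AMP response element, a sequence found in 508 of 32851 RefSeq promoter windows of this length (1.55%), and the Tac1 window held 1 E-box, found in 1978 of them (6.02%). Neither motif was in the Drd2 or Rgs9 window. Both Drd1 windows, which are not shown, also held neither motif, with 60.8% and 64.0% G and C. The EC reads of Drd1 were not raised in both libraries, so a lack of these motifs was not particular to the raised genes. The G and C content was 68.8% for Drd2, 59.6% for Rgs9, 58.4% for Gpr6 and 51.2% for Tac1, against a median of 52.4% over all windows. The promoters of Adora2a, Ppp1r1b and Penk were not analysed here.

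Total counts ranged from 25.9 to 50.1 M reads per library (M, mega), with a median of 34.7 M. The labelled regions were set against their marker genes. The 10 hippocampal genes summed to 846 to 1022 CPM (read counts scaled to the library size) in the HIP and 103 to 141 in the EC, and the 10 cortical genes to 412 to 570 CPM in the HIP and 1564 to 2112 in the EC. All CPM values here are scaled by TMM factors over the 22 libraries. The HIP libraries held a variable amount of choroid plexus RNA, the 10 genes of that tissue summing to 366 to 5538 CPM in the HIP and 179 to 302 in the EC.

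Compared per length of exon, in RPKM (CPM per kilobase), the order of the genes had Penk and Ppp1r1b at the top in both regions. In the HIP, Penk averaged 16.3 ± 3.83 RPKM (SD, n = 11) and Ppp1r1b 15.8 ± 2.12, and Penk was the higher of these in 6 of 11 libraries, so that their order was within the spread. Drd1 (1.98 ± 0.484), Tac1 (1.36 ± 0.486), Drd2 (1.01 ± 0.229), Rgs9 (0.985 ± 0.207), Adora2a (0.511 ± 0.069) and Gpr6 (0.458 ± 0.113 RPKM) followed, and among neighbours in this order only Ppp1r1b over Drd1 and Rgs9 over Adora2a held in all 11 libraries. In the EC, Penk averaged 31.0 ± 17.1 RPKM, Ppp1r1b 26.6 ± 4.2, Drd1 5.46 ± 1.14, Tac1 4.26 ± 0.893 and Gpr6 2.35 ± 0.557 RPKM. The last places were taken by Adora2a (1.4 ± 2.1), Drd2 (1.01 ± 0.801) and Rgs9 (0.978 ± 0.649 RPKM), and Adora2a exceeded Drd2 in only 4 of 11 EC libraries although its mean was higher. Gpr6 stood last in the HIP and at rank 5 in the EC.

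**Figure D1:**
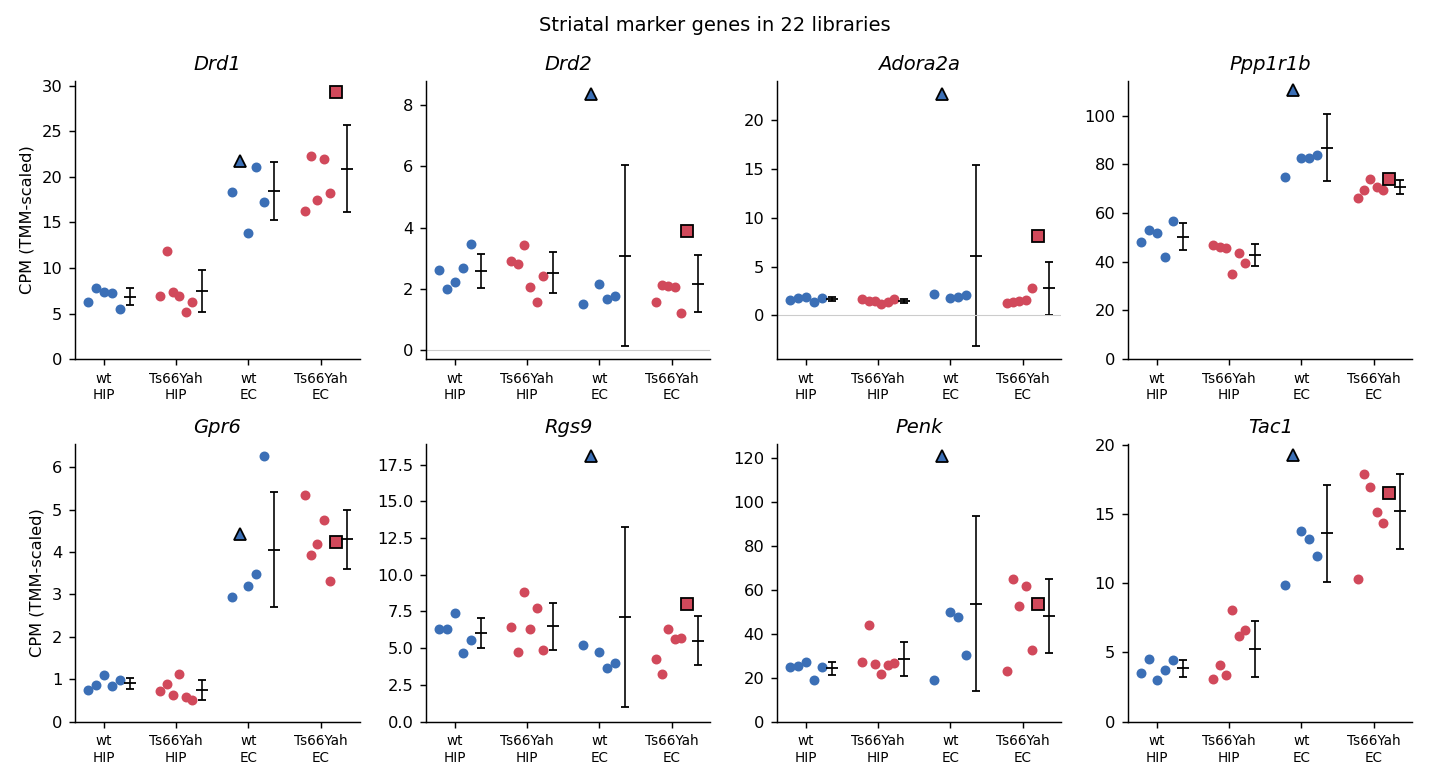
CPM of the 8 genes in the 22 libraries, in 4 groups (wt and Ts66Yah in HIP and EC); each point is 1 library, bars give the mean and SD, the triangle is wt EC 2 and the square is Ts66Yah EC 6. In the panels of Drd2, Adora2a and Rgs9 these 2 libraries lie above all other EC libraries, whereas in that of Gpr6 they lie among them.

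The receptor of the indirect pathway, Adora2a, showed the widest spread. In the wt EC libraries it was at 2.15, 22.8, 1.76, 1.87 and 2.04 CPM (replicates 1 to 5), and in the Ts66Yah EC libraries it ranged from 1.28 to 8.14 CPM with a median of 1.53, the highest being replicate 6. Thus wt EC 2, with 762 reads, and Ts66Yah EC 6, with 238 reads, stood above the other 9 EC libraries, which held 41 to 81 reads and 1.28 to 2.80 CPM. The coefficient of variation of Adora2a over the 11 EC libraries was 150%, a value reached by 0.0204% of the 14742 genes whose mean reached 1 CPM. It was 26.1% over the 9 other EC libraries and 13.5% over the HIP libraries, against medians over all genes of 12.0% and 9.82%.

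Drd2 followed the same libraries. Its wt EC values were 1.495, 8.36, 2.15, 1.66 and 1.77 CPM, and its Ts66Yah EC values ran from 1.21 to 3.9 CPM with a median of 2.09. Again wt EC 2 (280 reads) and Ts66Yah EC 6 (114 reads) were the highest, the other 9 holding 35 to 89 reads. Rgs9 was at 5.23, 18.1, 4.73, 3.62 and 4.02 CPM in the wt EC and at 3.24 to 8.04 CPM, with a median of 5.66, in the Ts66Yah EC, and the same libraries were the highest of their groups. Of all 14742 genes, Adora2a, Drd2 and Rgs9 took ranks 1, 2 and 3 by the ratio of wt EC 2 to the highest of the other 9 libraries (8.12, 3.89 and 2.87), and ranks 1, 4 and 58 for Ts66Yah EC 6 (2.91, 1.82 and 1.28).

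The other 5 genes did not share this pattern in full. Penk was at 19.0, 121, 49.8, 47.8 and 30.3 CPM in the wt EC and ranged from 23.2 to 65.0 CPM, with a median of 53.1, in the Ts66Yah EC. It was raised in wt EC 2, whereas Ts66Yah EC 6, at 53.5 CPM, lay among the other libraries. Ppp1r1b behaved alike, at 74.7, 110, 82.4, 82.7 and 83.9 CPM in the wt EC and from 66.1 to 74.0 CPM, with a median of 70.1, in the Ts66Yah EC. For Tac1, wt EC 2 (19.3 CPM) was the highest of the 11 EC libraries, only 1.08 times the next, and the range was 9.84 to 19.3 CPM.

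Drd1 showed the opposite order of the 2 libraries. Its wt EC values were 18.4, 21.8, 13.9, 21.1 and 17.3 CPM, among which wt EC 2 did not stand out, and in the Ts66Yah EC it ranged from 16.2 to 29.3 CPM with a median of 20.1, the highest being replicate 6. For Gpr6, the wt EC libraries held 2.93, 4.42, 3.21, 3.47 and 6.26 CPM and the Ts66Yah EC libraries 3.32 to 5.35 CPM with a median of 4.21. Neither wt EC 2 nor Ts66Yah EC 6 (4.24 CPM) exceeded the other 9 for this gene, although Gpr6, like Adora2a, marks the indirect pathway.

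The excess of each library, its CPM minus the median of the other 9 EC libraries, was then compared between the 2 libraries. For Adora2a the excess was 21 CPM in wt EC 2 and 6.38 in Ts66Yah EC 6, a ratio of 0.304, and the ratio was 0.323 for Drd2 (6.59 and 2.13 CPM) and 0.248 for Rgs9 (13.3 and 3.31 CPM). Tac1 had an excess of 5.46 and 2.70 CPM, a higher ratio than these 3, whereas that of Penk was 0.079 (73.3 and 5.80 CPM) and that of Ppp1r1b 0.00442 (36.6 and 0.162 CPM). Drd1 had an excess of 3.54 CPM in wt EC 2 and 11.1 CPM in Ts66Yah EC 6. Among the 14742 genes, 8.5% were above all other 9 EC libraries in wt EC 2, 8.94% in Ts66Yah EC 6 and 1.71% in both; among the 8 marker genes the counts were 6, 4 and 3. The genes were chosen with this pattern known, so that these counts are a description.

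**Figure D2:**
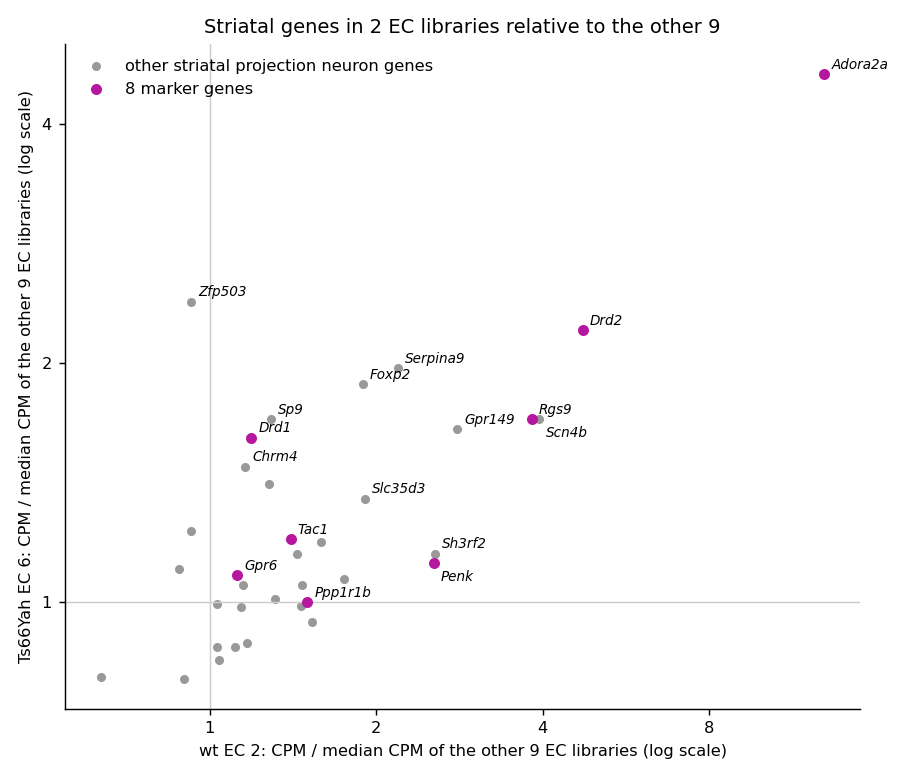
CPM in wt EC 2 (x axis) and in Ts66Yah EC 6 (y axis), each divided by the median CPM of the other 9 EC libraries, both on log scales, for the 8 marker genes and for the other striatal genes with enough reads for a ratio. Adora2a (12.9 and 4.62), Drd2 (4.72 and 2.20) and Rgs9 (3.82 and 1.70) lie toward the upper right, Drd1 (1.19 and 1.61) is raised mainly on the y axis, and Gpr6 (1.12 and 1.08) lies near 1 on both.

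The other genes of striatal projection neurons, a list of 33 symbols of which 32 were matched, were split in the same way. In wt EC 2, 19 of 32 were above all other 9 EC libraries, in Ts66Yah EC 6 it was 7, and 4 were above in both. Those 4 were Six3 and Isl1, transcription factors of striatal neuron development, Foxp2, which is also known from deep cortical layers, and Rarb, a retinoic acid receptor. Six3 was at 91 reads in wt EC 2 and 26 in Ts66Yah EC 6, but at 0 to 4 reads in the other 9 EC libraries. Isl1 was at 21 and 5 reads, and at 0 in each of the other 9, which allows up to 0.0696 to 0.1 CPM of the library total depending on the library (3 counts, counting error only). The 95% exact Poisson intervals were 2.18 to 3.32 CPM of the library total for Six3 in wt EC 2 and 0.564 to 1.27 in Ts66Yah EC 6. The ratios of the excess were 0.319 for Six3 and 0.273 for Isl1. Over the 19 list genes raised in wt EC 2 the ratio ran from -0.659 (Pde1b) to 1.48 (Rarb), and it lay within the range of those of Adora2a, Drd2 and Rgs9 for 3 genes, below it for 8 and above it for 8. Among those below were Pde10a (-0.109), Rasd2 (-0.0244), Meis2 (0.0225), Sh3rf2 (0.0952), Lrrc10b (0.0961) and Pde7b (0.0985), which were above the other 9 libraries in wt EC 2 and not in Ts66Yah EC 6.

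Scn4b, a sodium channel subunit, was at 113 CPM in wt EC 2 and 48.7 in Ts66Yah EC 6, against 19.4 to 63.9 CPM in the other 9. Conversely, Zfp503, a transcription factor gene, was raised in Ts66Yah EC 6 (4.79 CPM) but not in wt EC 2 (1.85 CPM), with 1.42 to 3.27 CPM in the other 9. Chrm4, a muscarinic receptor gene, was highest in Ts66Yah EC 6 as well (27.7 CPM), yet only just above the next library (27.5 CPM). Foxp2 was at 17.5 CPM in both libraries and at 6.65 to 12.3 CPM in the others. The excess ratio was 0.238 for Scn4b and 0.998 for Foxp2. Thus the genes raised in the 2 libraries overlapped in part. Six3, Isl1, Pde10a, Rasd2, Pde1b, Pde7b, Scn4b, Zfp503, Chrm4, Foxp2 and Rarb were chosen for description after their values had been seen.

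In the HIP these genes had a different pattern. Six3 was at 7 to 59 reads in the 11 HIP libraries and Isl1 at 0 to 17 reads, with Isl1 at 0 in 2 of them. The highest Six3 count was in Ts66Yah HIP 1 (59 reads) and the highest Isl1 count in Ts66Yah HIP 3 (17 reads). Adora2a varied little in the HIP, from 1.18 to 1.84 CPM, and its value in Ts66Yah HIP 1 was 1.70 CPM and in Ts66Yah HIP 3 1.46 CPM. The septal genes, a list of 7, summed to 58.8 to 123 CPM in the HIP, with the highest sum in Ts66Yah HIP 3, and to 26.9 to 42.7 CPM in the EC; their part in the Six3 and Isl1 reads was not tested.

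**Figure D3:**
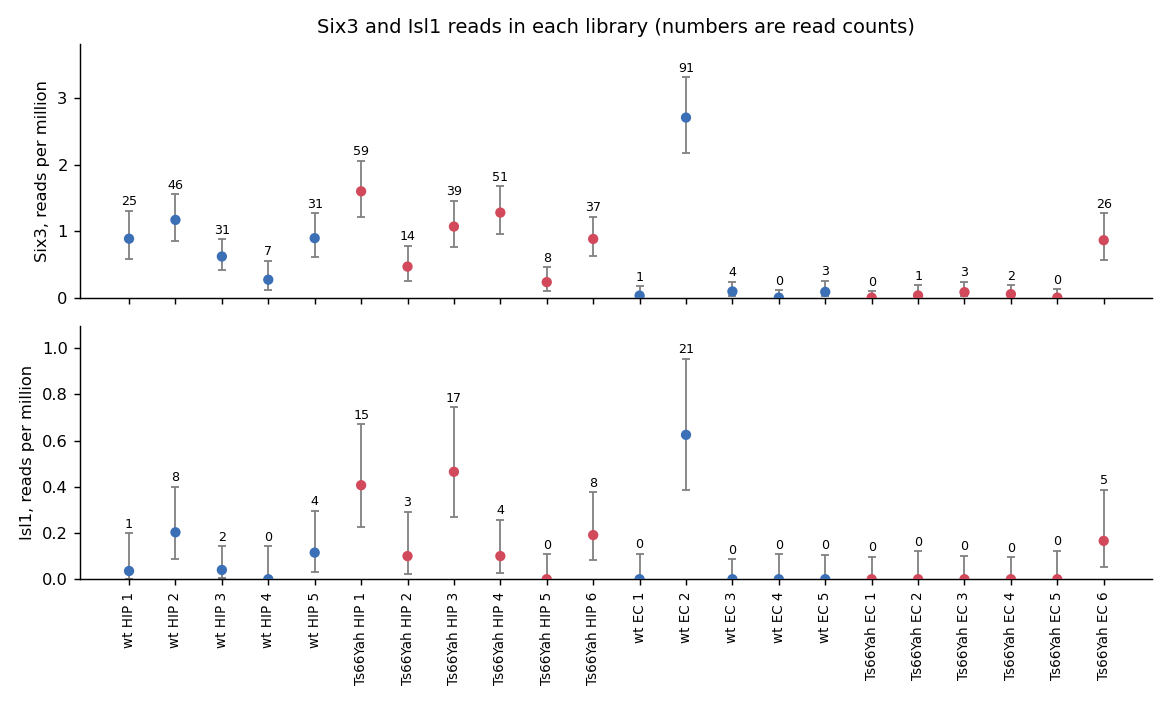
Reads of Six3 and Isl1 as CPM of the library total in each of the 22 libraries, with 95% exact Poisson intervals (counting error only) and the read count above each point; blue is wt and red is Ts66Yah. In the EC the reads lie almost entirely in wt EC 2 (91 and 21) and Ts66Yah EC 6 (26 and 5), whereas in the HIP Six3 reads are in every library.

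Markers of other cell types were summed in the same libraries. The 10 genes of mature oligodendrocytes, a list added after the values had been seen, summed to 3619 CPM in wt EC 2 and 2622 in Ts66Yah EC 6, against 1452 to 2983 in the other 9 EC libraries, and the 10 thalamic genes to 318 and 293 CPM against 263 to 295. For the 10 choroid plexus genes the sums were 302 and 221 CPM against 179 to 247. The 6 cholinergic genes summed to 3.55 and 2.29 CPM against 1.30 to 2.45, with the defining gene Chat at 30 and 10 reads against 3 to 12, Lhx8 at 6 and 0 reads against 0 to 1, and Slc18a3 at 7 and 15 reads against 3 to 15. The sum over midbrain dopamine neuron genes was highest in Ts66Yah EC 6 (138 CPM), with 113 CPM in wt EC 2 and 89.5 to 109 in the others. Of the 7 genes in this sum, 1 had no reads in any EC library, and the single genes are not given. The 10 genes of the central and intercalated amygdala summed to 307 CPM in wt EC 2 and 378 in Ts66Yah EC 6, both within the 258 to 418 CPM of the other 9. For the claustrum and endopiriform list the sums were 823 and 853 CPM, within 722 to 953, and the cortical sums of 1870 and 1907 CPM lay within 1564 to 2112. The interneuron list summed to 1153 and 1202 CPM against 1012 to 1197, and the excitatory neuron list to 6289 and 6037 CPM against 6101 to 7250. Foxp2 and Meis2 are on both the striatal and the amygdala list, and Nr4a2 is on both the dopamine neuron and the claustrum and endopiriform list. The part of these tissues in the raised reads was not tested.

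In the HIP libraries of the same 2 animals, Adora2a, Drd2 and Rgs9 lay within the range of the other HIP libraries. In wt HIP 2, Adora2a was at 1.79 CPM, Drd2 at 2.01 and Rgs9 at 6.32, which placed them at ranks 2, 10 and 6 from the highest of 11. In Ts66Yah HIP 6 the values were 1.72, 2.42 and 4.86 CPM, at ranks 4, 7 and 9. Of the other 5 genes, Drd1 and Ppp1r1b were at rank 2 in wt HIP 2 and Tac1 at rank 2 in Ts66Yah HIP 6, and the remaining ranks ran from 4 to 11. Drd2 thus was among the lowest HIP values in the animal with the highest EC value.

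Next, the level that each gene had in the EC at zero Adora2a reads was read from a line of its CPM on that of Adora2a over the 11 libraries. For Drd2 the line started at 1.25 CPM, which was 48.3% of its mean, and for Rgs9 at 3.55 CPM (56.8%). For Penk it started at 35.4 CPM (69.9%), and for Ppp1r1b (71.1 CPM), Tac1 (13.3 CPM), Drd1 (18.8 CPM) and Gpr6 (4.15 CPM) at 91.2%, 92.1%, 94.7% and 99.1% of the mean. The line on Adora2a held 96.0% of the variance of Drd2 and 95.1% of that of Rgs9, but 0.328% of that of Gpr6. These lines rest on the 2 raised libraries. Without them the level of Drd2 at zero Adora2a was 2.71 CPM, above its mean, and that of Penk 71.4 CPM, and with Rgs9 in place of Adora2a the levels were -0.366 and 16.5 CPM, so that neither level was fixed by these data. Also without them, the slope of Drd2 turned from 0.311 to -0.504 CPM per CPM of Adora2a, whereas that of Rgs9 stayed at 0.629. The intercept is a value on this line and not a measured absence of other tissue, since Adora2a itself may be expressed in the EC at a low level.

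Among the 28 pairs of genes, the Pearson correlation of log2 CPM over the 11 EC libraries had a median of 0.497 and ran from 0.023 to 0.917. Adora2a and Drd2 had r = 0.858 and Spearman's rho = 0.164, and without the 2 libraries r was -0.682. Adora2a and Rgs9 had r = 0.897 (rho = 0.582), and 0.297 without them. In contrast, Penk and Tac1 had r = 0.917 (rho = 0.936) and had r = 0.905 over the 9 other libraries and 0.859 without wt EC 1 and wt EC 2, the farthest from the median of Penk, with both genes lowest in wt EC 1 and Ts66Yah EC 1. In those libraries Penk was at 19.0 and 23.2 CPM and Tac1 at 9.84 and 10.3 CPM. The points share libraries and depth, and the coefficients are a description of these 11 libraries. In the HIP the median over the pairs was -0.0355, the range -0.626 to 0.746, and Penk and Tac1 had r = -0.168 (rho = -0.355).

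**Figure D4:**
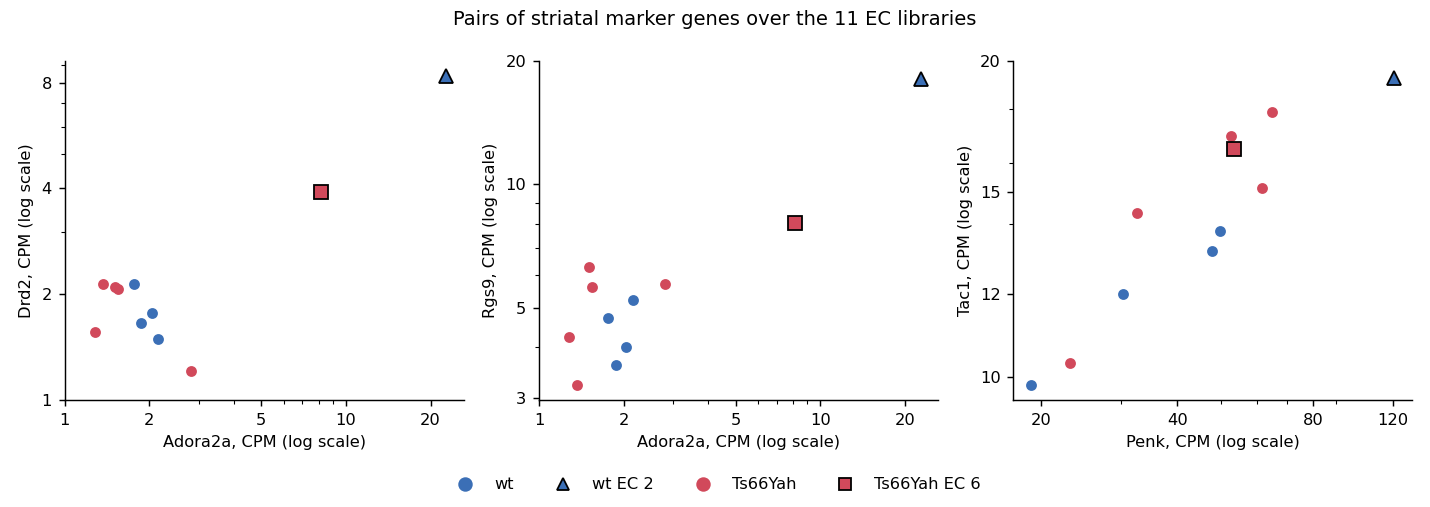
CPM of 3 pairs of genes over the 11 EC libraries, on log scales; each point is 1 library, blue is wt, red is Ts66Yah, the triangle is wt EC 2 and the square is Ts66Yah EC 6. For Adora2a with Drd2 and Rgs9 the trend runs through the triangle and the square (r = 0.858 and 0.897), while for Penk with Tac1 (r = 0.917) the other 9 libraries line up as well.

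Genes whose log2 CPM over the EC libraries was most like the mean of Adora2a, Drd1, Drd2, Gpr6 and Rgs9 were, in order, Myh2 (r = 0.839, n = 11), Trim68 (0.823), Atp8b1 (0.817), Tprn (0.811) and A730056A06Rik (0.807), all highest in wt EC 2, then Tdrd3, Spsb1, St6galnac3, Nmral1 and Mkrn2 (0.804 to 0.78). No gene of the striatal list was among the first 10. Only genes whose mean reached 1 CPM were ranked, which left out Six3 and Isl1. The mean pattern also included Drd1 and Gpr6, which were not raised in both libraries. The absence of striatal genes therefore cannot show whether such genes varied together. Without the 2 libraries the first were Smarcd2 (r = 0.927, n = 9), Unc93b1 (0.919) and Cfp (0.891), so that no gene was among the first 10 both times. In the HIP the first were Msto1 (r = 0.907, n = 11), Ngfr (0.902) and Snx2 (0.878), then Ccdc17, Mmp2, Lrrc49, Eml2, Rusc1, Acat2 and Rabl3 (0.87 to 0.839).

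The regions were compared within each genotype, EC minus HIP, in fits without the animal as a term. In wt mice 47.7% of the 17935 genes tested were called (edgeR quasi-likelihood test, Benjamini-Hochberg adjusted p below 0.05) and in Ts66Yah mice 54% of 18043, so that a call is common in this contrast. Drd1, Ppp1r1b, Gpr6 and Tac1 were higher in the EC in both genotypes, with no overlap between the regions. The share of all genes without overlap was not counted, so the lack of overlap is only a description of these genes. Gpr6 had the largest difference, at 2.17 on the log2 scale (SE 0.217, adjusted p = 4.56e-06) in wt, from 0.905 ± 0.136 to 4.06 ± 1.35 CPM (SD, n = 5), and at 2.53 (SE 0.187, adjusted p = 5.22e-08) in Ts66Yah, from 0.744 ± 0.230 to 4.30 ± 0.696 CPM (n = 6). For Tac1 the log2 fold change was 1.84 (SE 0.176, adjusted p = 3.02e-06) in wt and 1.53 (SE 0.222, adjusted p = 4.09e-05) in Ts66Yah. Drd1 was higher by 1.447 (SE 0.138, adjusted p = 2.93e-06) and 1.497 (SE 0.186, adjusted p = 9.62e-06), and Ppp1r1b by 0.81 (SE 0.105, adjusted p = 4.09e-05) and 0.72 (SE 0.069, adjusted p = 6.06e-07), in wt and Ts66Yah.

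In the HIP, Drd1 was at 6.29, 7.84, 7.38, 7.29 and 5.50 CPM in wt and at 5.20 to 11.9 CPM, with a median of 6.94, in Ts66Yah. The HIP values of Ppp1r1b were 48.1, 52.8, 51.6, 41.8 and 56.8 CPM in wt and 35.1 to 47.0 CPM, with a median of 44.6, in Ts66Yah. Gpr6 had few reads in the HIP, 21 to 55 reads per library. Tac1 was at 3.51, 4.53, 3.04, 3.70 and 4.46 CPM in wt HIP and at 3.07 to 8.09 CPM, with a median of 5.15, in Ts66Yah HIP. Every HIP value of these 4 genes lay below every EC value, a description given without the share over all genes.

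Penk was higher in the EC by a log2 fold change of 1.16 in wt (SE 0.374, adjusted p = 0.0217) and 0.76 in Ts66Yah (SE 0.232, adjusted p = 0.0128), with overlapping groups. By limma voom the wt difference was not called (0.88, adjusted p = 0.0728). Its HIP values were 24.8, 25.4, 27.2, 19.1 and 25.04 CPM in wt and 21.8 to 44.0 CPM, with a median of 26.4, in Ts66Yah. Without the library wt EC 2, left out after its values had been seen, the wt difference was 0.62 (adjusted p = 0.0437). The wt difference was not called without the whole animal wt 2 (0.63, adjusted p = 0.0662), wt 3 (1.22, adjusted p = 0.0539) or wt 4 (1.12, adjusted p = 0.0669). In Ts66Yah it was not called without animal 4 (0.60, adjusted p = 0.062).

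Adora2a was called between the regions in wt, with a log2 fold change of 1.88 (SE 0.706, 95% interval 0.35 to 3.41, adjusted p = 0.0429), from 1.67 ± 0.188 to 6.12 ± 9.30 CPM. This call was lost without wt EC 2, where the value was 0.25 (adjusted p = 0.192), and in the fit with the animal as a block, where it was 1.04 (adjusted p = 0.0999), and by limma voom (0.91, adjusted p = 0.267). It was also lost without animal wt 1 (2.08, adjusted p = 0.0613), wt 3 (2.16, adjusted p = 0.0503) or wt 4 (2.06, adjusted p = 0.0579). In Ts66Yah, Adora2a did not pass the test (0.90, SE 0.422, adjusted p = 0.0876), whereas DESeq2 called it over the same libraries (0.91, adjusted p = 0.0449). Without Ts66Yah EC 6 the edgeR value was 0.20 (adjusted p = 0.451). The libraries wt EC 2 and Ts66Yah EC 6 were left out because their Adora2a reads were high, which by itself lowers the EC value.

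Drd2 and Rgs9 did not pass the test in either genotype. In wt their log2 fold changes were 0.27 (SE 0.437, adjusted p = 0.642) and 0.25 (SE 0.39, adjusted p = 0.628), and in Ts66Yah -0.23 (SE 0.251, adjusted p = 0.468) and -0.24 (SE 0.204, adjusted p = 0.352). Their HIP values were 2.61, 2.01, 2.22, 2.68 and 3.45 CPM for Drd2 and 6.33, 6.32, 7.40, 4.65 and 5.58 CPM for Rgs9 in wt. In Ts66Yah HIP, Drd2 ranged from 1.57 to 3.43 CPM with a median of 2.61, and Rgs9 from 4.75 to 8.82 CPM with a median of 6.38. Without wt EC 2 the direction in wt turned and both were called lower in the EC, Drd2 at -0.52 (adjusted p = 0.0372) and Rgs9 at -0.44 (adjusted p = 0.0356). That library was left out after its reads of both genes had been seen to be the highest in the EC. Leaving it out lowers the EC mean of these genes, so these 2 calls are a description. Without the whole animal wt 2, Drd2 was called (-0.61, adjusted p = 0.0211) and Rgs9 was not (-0.43, adjusted p = 0.0634). Thus the direction of 2 of the 8 genes between the regions in wt mice depended on 1 library.

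**Figure D5:**
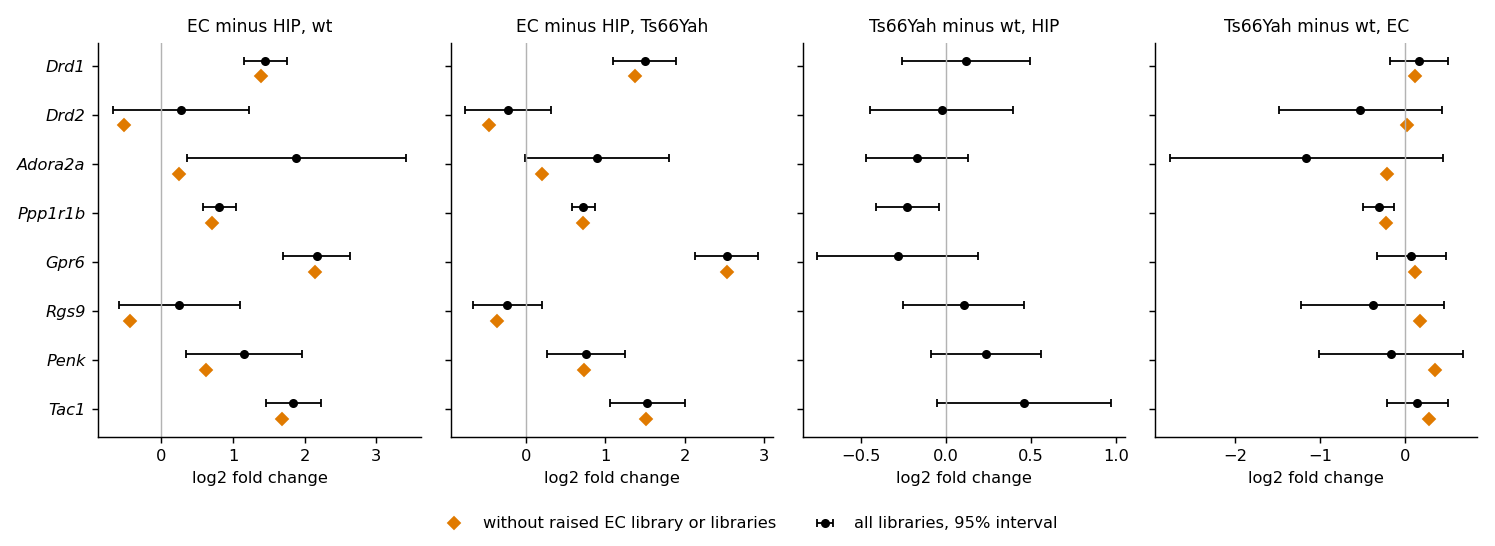
Log2 fold changes of the 8 genes (x axis) in 4 comparisons: EC minus HIP in wt and in Ts66Yah, and Ts66Yah minus wt in HIP and in EC. Black points with bars are edgeR estimates with 95% intervals over all libraries, and orange diamonds are estimates without wt EC 2, Ts66Yah EC 6 or both. Between regions, Drd1, Gpr6, Tac1 and Ppp1r1b move little, whereas Adora2a goes from 1.88 to 0.25 and Drd2 from 0.27 to -0.52 in wt.

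Of the striatal list, 15 of 28 genes tested were higher and 4 lower in the EC in wt mice. The median log2 fold change of the list was 0.51, against 0.0106 over all genes. In Ts66Yah, 16 of 29 were higher and 8 lower (median 0.44 against 0.00546). Calls were common in this contrast, at 47.7% of all genes tested in wt and 54% in Ts66Yah. The list was not tested as a set. Among the larger differences were those of Lrrc10b (-3.80 in wt and -3.96 in Ts66Yah), Sh3rf2 (2.98 and 2.63), Foxp2 (2.48 and 2.43) and Rxrg, a retinoid receptor (2.19 and 1.98). Six3 was lower in the EC in Ts66Yah (-2.41, adjusted p = 0.0156) and did not pass in wt (-0.37, adjusted p = 0.78). The wt value rests on wt EC 2 with its 91 reads, since the other 4 wt EC libraries held 0 to 4 reads and the wt HIP libraries 7 to 46, and the test of the difference between the genotypes did not pass (genotype by region, adjusted p = 1). Without wt EC 2, left out after its values had been seen, 23 genes of the list were called in wt in place of 19.

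Of the receptors and signalling partners of the 8 genes, 19 of 30 tested were higher and 5 lower in the EC in wt (median 0.42). In Ts66Yah, 20 of 30 were higher and 6 lower (median 0.42). Over all genes tested the medians were 0.0106 in wt and 0.00546 in Ts66Yah, and 47.7% and 54% were called. This list was not tested as a set either. Among the receptors, the dopamine receptor Drd5 was higher in the HIP (9.47 CPM against 0.674 in the wt EC, log2 fold change -3.79, adjusted p = 4.18e-08), and Oprk1, the receptor of dynorphin, higher in the EC (1.40 against 18.4 CPM, 3.73, adjusted p = 4.88e-08). Tacr1, the receptor of substance P, which was chosen after its values had been seen, was also higher in the EC (1.25 against 3.30 CPM, 1.42, adjusted p = 3.11e-05). Of the RGS genes related to Rgs9, Rgs6 was higher in the EC (2.01, adjusted p = 2.27e-10) and Rgs11 in the HIP (-2.14, adjusted p = 2.11e-07). Prkar2b, a regulatory subunit of protein kinase A, was higher in the EC (1.448 on the log2 scale, adjusted p = 3.32e-07). In Ts66Yah these differences were -3.55 for Drd5, 3.24 for Oprk1, 1.32 for Tacr1, 1.76 for Rgs6, 1.42 for Prkar2b and -2.60 for Rgs11, each past the threshold.

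The genotypes were compared within each region, Ts66Yah minus wt. By edgeR, 0 of the 8 genes were called in the HIP, where 0.591% of 18452 genes were, and 0 in the EC, where 0.283% of 17658 genes were. DESeq2 and limma voom also called 0 in either region, but DESeq2 gave no adjusted p for Drd2 and Adora2a in the EC. At an unadjusted p below 0.05 there was 1 of the 8 genes in each region, Ppp1r1b, against 11.9% (HIP) and 6.25% (EC) of all genes at that level, so that 1 of 8 is near the background. It was at 50.2 ± 5.63 CPM in wt HIP (n = 5) and 42.8 ± 4.67 in Ts66Yah HIP (n = 6), or -0.23 on the log2 scale (SE 0.087, adjusted p = 0.315). In the EC the groups were at 86.8 ± 13.7 and 70.6 ± 2.96 CPM and did not overlap. The share of all genes without overlap was not counted. The EC difference was -0.31 (SE 0.086, adjusted p = 0.377), and without wt EC 2 it was -0.20 (adjusted p = 0.407). The HIP and EC values come from the same 11 animals and are not independent.

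The 95% intervals of the other genes included 0. In the HIP the log2 fold changes ran from -0.29 (Gpr6, SE 0.219, adjusted p = 0.66) to 0.46 (Tac1, SE 0.237, adjusted p = 0.477). Tac1 was higher in Ts66Yah HIP 4, 5 and 6, at 8.09, 6.18 and 6.61 CPM, than in any wt HIP library, whereas Ts66Yah HIP 1, 2 and 3, at 3.07, 4.13 and 3.37 CPM, lay within the wt range of 3.04 to 4.53 CPM. Drd1 and Penk had their highest HIP values in the same library, Ts66Yah HIP 2 (11.9 and 44.0 CPM), and the other Ts66Yah HIP libraries lay at 5.20 to 7.41 and 21.8 to 27.2 CPM.

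In the EC, Adora2a had a log2 fold change of -1.16 with a wide interval (SE 0.75, 95% interval -2.77 to 0.46, adjusted p = 0.906), and the value was 0.49 without wt EC 2 and -0.21 without both raised libraries. Drd2 was at -0.52 (SE 0.448, adjusted p = 0.951), Rgs9 at -0.38 (SE 0.39, adjusted p = 0.968) and Penk at -0.16 (SE 0.394, adjusted p = 0.989), and without both raised libraries these values were 0.03, 0.18 and 0.36. For Drd1 (0.17, SE 0.159, adjusted p = 0.96), Gpr6 (0.08, SE 0.188, adjusted p = 0.989) and Tac1 (0.15, SE 0.168) the intervals were narrower. Of the 2 raised libraries, 1 is wt and 1 is Ts66Yah.

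The difference of the genotype effects between the regions was called for 0 of 19074 genes (0%) by edgeR, 388 of them being at an unadjusted p below 0.05. DESeq2 also called 0 of the 8 genes, but gave no adjusted p for Adora2a. None of the 8 was at an unadjusted p below 0.05, with log2 differences from -0.98 (Adora2a, SE 0.86, adjusted p = 1) to 0.37 (Gpr6, SE 0.288, adjusted p = 1).

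The lists gave 0 calls between genotypes as well: by edgeR 0 of 28 striatal genes in HIP, 0 of 29 in EC, and 0 of 30 and 0 of 31 signalling partners. DESeq2 called 1 partner in the HIP, Pam, an enzyme that amidates neuropeptides (0.16, adjusted p = 0.0264), and edgeR with the 22 libraries in a joint fit called 1 in the EC, Rgs11 (-0.68, adjusted p = 0.0449). At an unadjusted p below 0.05 there were 1 of 28 striatal genes and 3 of 30 partners in the HIP, against 11.9% of all genes. In the EC there were 2 of 29 striatal genes and 3 of 31 partners, against 6.25% of all genes. These small counts are a description. Meis2, a transcription factor gene of the striatal list (-0.27 in the HIP and -0.30 in the EC), Oprm1, the mu opioid receptor (0.55 and 0.50), and Rgs11 (-0.22 and -0.68) were at that level in both regions, with adjusted p from 0.257 to 0.735; these genes and Pam were named after their values had been seen.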

How the data were processed

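RNA of the HIP and EC was sequenced as single-end reads, and per the study's methods Hisat2 (GRCm38) and HTSeq-count gave the reads per gene; tool versions, the strand setting and the handling of multi-mapping reads are not given in the sources used here. The kit is one of poly(A) selection in the labels and one of ribosomal RNA depletion in the methods. The labels' processing notes name bcl2fastq 2.17.1.14, DESeq2 and mm10.

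The authors deposited raw counts per gene for the 22 libraries, which were used as deposited; columns were mapped by their labels, and 55144 of 55385 identifiers matched GENCODE M21. The authors also deposited DESeq2 and FCROS result tables of their own comparisons (fold changes and p-values), which were not used.

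Comparisons were fitted over all genes with edgeR 4.0.16 in R 4.3.3 (TMM, filterByExpr, quasi-likelihood test, Benjamini-Hochberg adjusted p below 0.05), genotype within region, region within genotype and their interaction over 22 libraries. The group was the only term. The main p-values between regions and of the interaction thus treat the libraries as independent, and the animal was fitted only as an alternative. The scripts were tested on simulated data. CPM were scaled by TMM, RPKM used the exon length, and log2 CPM a prior count of 2. Values rest on 25.9 to 50.1 M reads per library; intervals and limits of single libraries cover counting error only. HIP and EC libraries of an animal deviated together (r from 0.206 to 0.454 in wt and from 0.262 to 0.41 in Ts66Yah), so the animal pairs the regions by the labels. All 8 genes were named; of each list, at most 5 called genes whose mean reached 1 CPM, with the largest changes per comparison, and the 10 genes most alike per region. Members and lists were chosen with earlier results of these data known. Alternatives were DESeq2 1.42.0, limma 3.58.1 voom, RLE factors, no filter, a minimum of 1 CPM in 5 libraries, a joint fit of the 22 libraries, blocks, and leaving out animals or libraries. Replicates are separate animals. A list gene that the naming rule selects is not reported here.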

Additional observations from a re-analysis of the deposited data

Results flagged for a closer look

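Of 32 sets of libraries (8 genes in 4 groups), 8 had a single library far from the others by Dixon's test at the 95% level. A chance rate of about 1 in 20 would hold only for independent sets of genes chosen without these data. Here the genes were chosen with the pattern known and the sets share libraries, so the count is a description. In the EC, wt EC 2 stood apart for Adora2a (22.8 CPM, the others at 1.76 to 2.15), Drd2 (8.36 CPM, the others at 1.495 to 2.15), Rgs9 (18.1 CPM, the others at 3.62 to 5.23) and Ppp1r1b (110 CPM, the others at 74.7 to 83.9). Ts66Yah EC 6 stood apart for Adora2a (8.14 CPM, the others at 1.28 to 2.80) and Drd2 (3.9 CPM, the others at 1.21 to 2.14). In the HIP, Ts66Yah HIP 2 stood apart for Drd1 (11.9 CPM, the others at 5.20 to 7.41) and Penk (44.0 CPM, the others at 21.8 to 27.2), while Adora2a (1.452 CPM) and Six3 (14 reads) were not high there. The cause was not tested for any of these libraries.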

How the results depend on the processing

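Under the alternatives, 580 log2 fold changes of the 8 genes had the same direction and side of the threshold, 33 turned direction, 12 lost the call and 1 gained it. The cause was not tested except where leaving out a library is itself the change. With limma voom, Penk between genotypes in the EC was 0.027, and Drd2 and Rgs9 between regions in wt were -0.05 and -0.063, and the wt calls of Penk (0.876) and Adora2a (0.91) were lost. With the animal as a replicate block, these were -0.02 and -0.007, the Adora2a call in wt was lost, and the counts of genes called were 5 in wt, 5 in Ts66Yah and 0 for the interaction. Same-numbered wt and Ts66Yah libraries are linked by the number alone in the labels. In the HIP their r was between -0.007 and 0.058 (median 0.047, against -0.001 for other pairs). In the EC it was between 0.017 and 0.177 (median 0.058, against -0.014), and 3 of 5 wt libraries were most like their same-numbered library. Whether such libraries share a factor was not tested. With that replicate block 0 of the 8 genes were called in either region. Without the EC libraries with raised Adora2a, an alternative chosen after seeing the data, Drd2, Rgs9 and Penk between genotypes in the EC were 0.034, 0.183 and 0.357, Drd2 and Rgs9 between regions in wt -0.521 and -0.437, and the interactions of Drd2, Ppp1r1b, Rgs9 and Penk 0.062, 0.013, 0.079 and 0.12. DESeq2 gave no adjusted p for 5 values of Drd2 and Adora2a, which are left out of these counts.

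Leaving out 1 library at a time, the genotype difference in the HIP ran from -0.061 to 0.2 for Drd1, from -0.132 to 0.103 for Drd2 and from -0.004 to 0.182 for Rgs9. In the EC it ran from -0.769 to 0.279 for Drd2, from -1.859 to 0.487 for Adora2a, from -0.005 to 0.282 for Gpr6, from -0.534 to 0.317 for Rgs9 and from -0.367 to 0.386 for Penk. Leaving out 1 animal, the region difference in wt ran from -0.605 to 0.544 for Drd2 and from -0.425 to 0.45 for Rgs9. The interaction ran from -0.112 to 0.214 for Drd1, -0.768 to 0.392 for Drd2, -1.638 to 0.64 for Adora2a, -0.141 to 0.011 for Ppp1r1b, -0.693 to 0.203 for Rgs9 and -0.624 to 0.14 for Penk.

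The level at zero Adora2a was not steady in the HIP, where Adora2a varied little, nor for Drd2, Penk and Gpr6 in the EC. Leaving out 1 library, it ran from 6.032 to 10.53 CPM for Drd1, 1.2 to 2.584 for Drd2, 6.607 to 19.04 for Ppp1r1b, 0.09472 to 1.203 for Gpr6, 5.489 to 8.186 for Rgs9, 13.1 to 32.98 for Penk and 5.194 to 11.82 for Tac1. With Rgs9 in place of Adora2a it was 2.783 CPM for Drd2, 42.36 for Ppp1r1b, 31.94 for Penk and 5.786 for Tac1, and with Gpr6 it was 5.47 for Drd1, 2.628 for Drd2, 40.81 for Ppp1r1b and 4.561 for Tac1. In the EC without the raised libraries it was 5.638 CPM for Gpr6, 71.43 for Penk and 2.71 for Drd2, and with Rgs9 in place of Adora2a -0.3664 for Drd2 and 16.45 for Penk.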
